A study of Caenorhabditis elegans with 2 samples.

Results

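The genes described here are 8 members of the Pumilio (PUF) family of Caenorhabditis elegans, chosen by symbol from the 19973 nuclear protein-coding genes of the annotation. They are puf-9, puf-8, fbf-1, fbf-2, puf-3, puf-11, puf-5 and puf-12. PUF proteins bind short motifs in the 3′ UTRs of messenger RNAs and usually reduce the stability or translation of those mRNAs. In C. elegans, PUF-8 and PUF-9 are the members most like Drosophila Pumilio. puf-9 acts in the soma, where it helps the let-7 microRNA to repress the timing gene hbl-1, while most of the other members are known for their work in the germ line.

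The data were ChIP-seq peak lists for ZFP-2, a C2H2 zinc finger protein, tagged at its C terminus with GFP and FLAG and precipitated with anti-GFP. All animals were hermaphrodites of strain OP534, which carries the unc-119(tm4063) mutation on chromosome III and the integrated transgene wgIs534, and were taken as L4 larvae 52 hours after synchronization at a starved L1 stage. Both libraries were biological replicates of this 1 group (n = 2), so there was no contrast between conditions and no test. ChIP was on whole animals, and binding in a few cells cannot be told apart from weak binding in many. ZFP-2 was supplied from a transgene, and the labels do not say in which tissues that transgene was active.

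Peaks were read on the ce11 build. The replicate 1 list had 18200 entries, the replicate 2 list 17770 and the pooled list 14658, and all of them reach down into background. The list thresholded by irreproducible discovery rate (IDR) kept the 660 strongest of the pooled list. Signal is the authors' value for a peak, on a scale the sources used here do not explain. Signals were compared within a list, and between the replicate lists only as a ratio set beside the same ratio over other peaks. Rank 1 is the strongest peak. The weakest thresholded peak had signal 83.8, and the strongest pooled peak left out had 83.7. Read depth is unknown.

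A gene region ran from 1000 bp upstream of the annotated 5′ end to the end of the gene, and a gene was counted where a peak summit lay in its region. Many worm transcripts are trimmed and joined to a spliced leader, so an annotated 5′ end can lie downstream of the start of transcription. puf-9 had been picked because its peak is strong, so its signal and rank are a description and not a test.

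The sequence under the puf-9 summit is shown because this is the one site in the family that passed the IDR threshold. It covers 300 bases at chrX:5841162-5841461 on the plus strand, which is the strand of puf-9, with the summit at 5841312 and a GC content of 47.7%. Capitals mark 6-base words that led among words found more often at the summits of these data, searched on either strand. The 8 words include ACGCAG, which overlaps with GACGCA, and that one overlaps in turn with AGACGC. Further words were ACGCGC as well as ACACGC, besides GAGCGC. A last pair was CGAGAG, which overlaps with GCGAGA. A capital run can hold more than 1 of them.
puf-9 summit: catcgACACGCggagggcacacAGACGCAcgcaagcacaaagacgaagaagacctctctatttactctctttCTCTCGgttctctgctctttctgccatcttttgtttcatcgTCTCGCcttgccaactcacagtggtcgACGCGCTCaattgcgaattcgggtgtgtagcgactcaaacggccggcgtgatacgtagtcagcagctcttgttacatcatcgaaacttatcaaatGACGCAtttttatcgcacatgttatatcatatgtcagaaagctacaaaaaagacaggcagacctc

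For comparison, 150 bases around the upstream pooled summits of the germline paralogues puf-3 and puf-11 are given on the strand of each gene, at chrIV:13512811-13512960 (minus strand) and chrIV:6421328-6421477 (plus strand). The puf-3 stretch holds none of the 8 words, and the puf-11 stretch holds GCGAGA and ACGCGC.
puf-3 upstream summit: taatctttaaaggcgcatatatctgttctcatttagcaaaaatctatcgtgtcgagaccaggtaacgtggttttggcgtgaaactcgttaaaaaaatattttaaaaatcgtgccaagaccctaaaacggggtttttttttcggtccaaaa
puf-11 upstream summit: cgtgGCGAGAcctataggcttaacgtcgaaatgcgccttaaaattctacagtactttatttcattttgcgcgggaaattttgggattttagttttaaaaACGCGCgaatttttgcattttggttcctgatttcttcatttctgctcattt

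The somatic gene puf-9 (WBGene00004245, chromosome X, 5841592 to 5845987, plus strand) carried the only thresholded peak of the family. That peak ran from 5841006 to 5841603 with its summit 280 bp upstream of the annotated 5′ end. Its signal was 3662 in the pooled list, at rank 6 of all peaks and rank 4 of the nuclear ones. In replicate 1 the signal was 1599 at rank 9, and in replicate 2 it was 2091 at rank 6. Both replicates thus placed it among their strongest peaks, with summits 276 bp and 281 bp upstream.

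Counted by gene, puf-9 was rank 7 among the 658 genes with a thresholded summit in their region (3.29% of all genes). Its position varied little between lists, the replicate summits lying 4 bp and 1 bp from the pooled one. The ratio of replicate 2 to replicate 1 signal was 1.31 at puf-9, against a median of 1.28 (quartiles 1.07 and 1.54) over the 607 nuclear thresholded summits found in both replicate lists within 100 bp.

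The puf-9 peak was wider than nearly all others, as were the peaks nearest to it in rank. Nearly all peaks had 1 common width, 436 bp for 99.0% of the pooled list, and 22 nuclear peaks of that list were wider. At 598 bp the puf-9 peak was second among the 14640 nuclear peaks, after the 618 bp peak at hsr-9, a gene of the DNA damage response, whose signal was 4889. It was again second to the hsr-9 peak in replicate 1, at 562 bp, and in replicate 2, at 553 bp. The 5 peaks nearest to it in rank were 521 to 571 bp wide in the pooled list.

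Apart from its promoter peak, puf-9 held scattered weak calls. The pooled list had 1 more summit in the gene, in a coding exon 2616 bp downstream of the 5′ end, with signal 33.8 at rank 6338. Replicate 1 had summits 1156 bp and 2799 bp downstream, both in introns, with signals 21.2 and 12.4. In replicate 2 they were 836 bp and 1674 bp downstream, both in coding exons, with signals 18.1 and 20.1. None of the replicate calls lay within 100 bp of the pooled one, although the nearest, in replicate 1, was 183 bp away and would match with a limit of 200 bp. The nearest in replicate 2 was 942 bp away. The promoter summit was matched within 100 bp in every list.

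The strongest of the weak puf-9 calls lay far below the promoter peak in each list. The promoter signal was 109 times that of the next summit in the pooled list, 75.3 times in replicate 1 and 104 times in replicate 2. Around the gene the thresholded list was empty, with the next summits 40001 bp to the left and 143457 bp to the right. Within 20 kb the pooled list had 8 other summits, of signal up to 46.1.

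**Figure D1:**
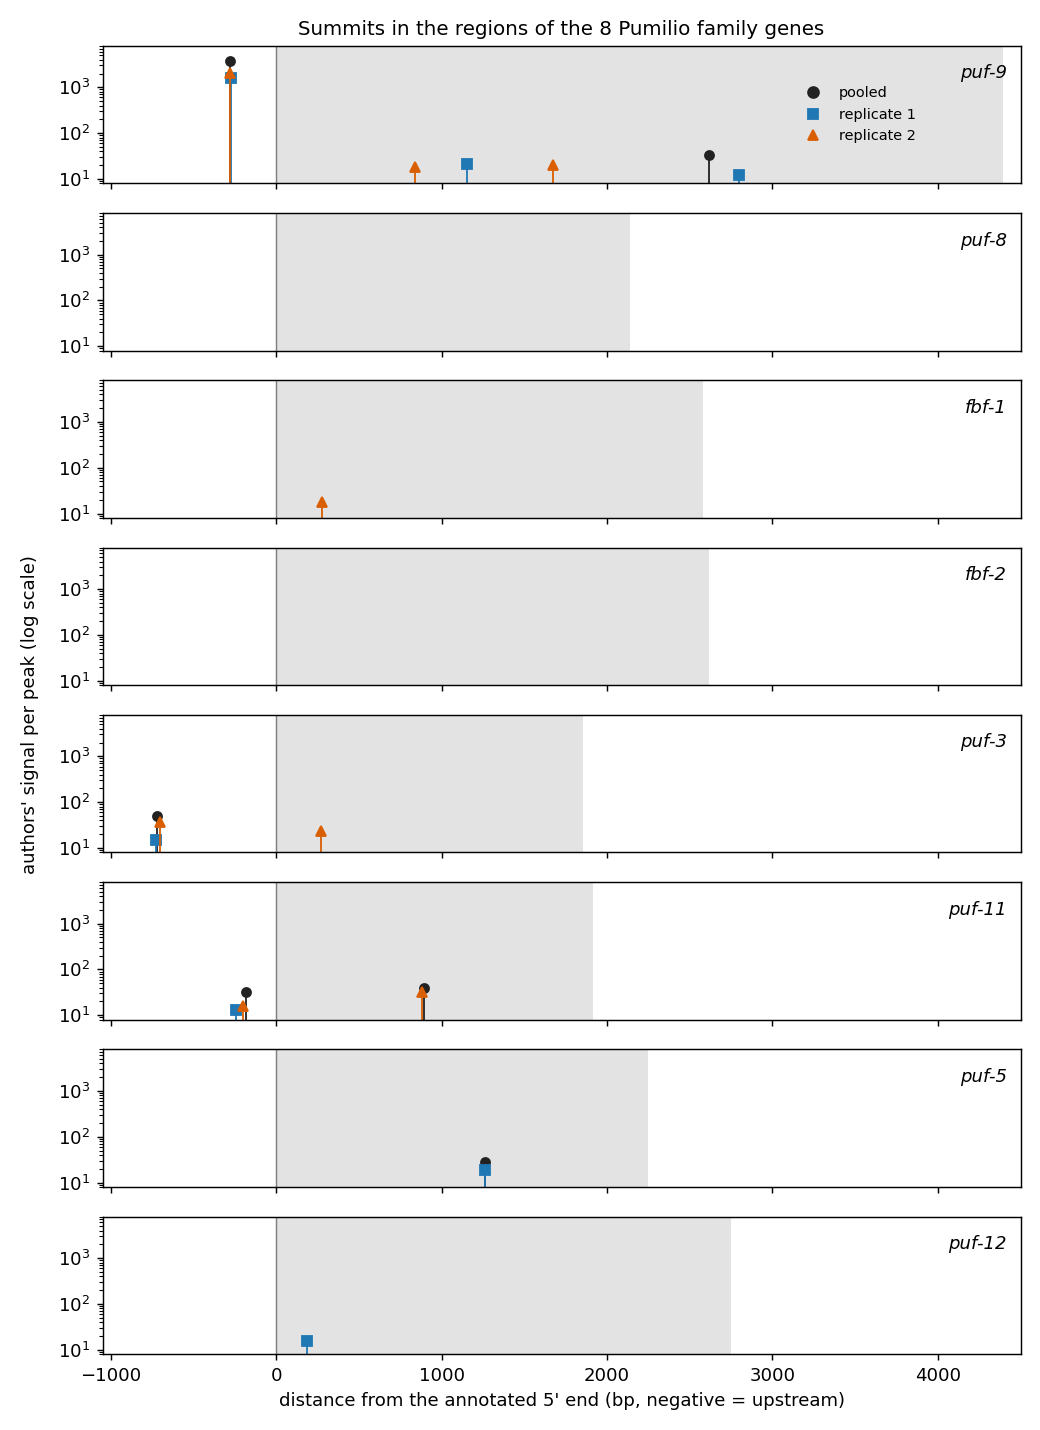
Each row is a gene, with distance from the annotated 5′ end in bp on the x axis, the authors' signal per peak on a log y axis, grey for the gene body, and 1 marker per summit in the pooled list (circles) and the replicate lists (squares and triangles). The puf-9 promoter summit stands at 3662, 1599 and 2091, while the highest summit in the region of any other member is 50.6, at puf-3.

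The puf-9 summit fell inside a pair of annotated noncoding RNA genes that overlap each other by 166 bp on opposite strands. W06B11.7 (5841170 to 5841350, minus strand) had its 5′ end 38 bp from the summit, and W06B11.9 (5841185 to 5841361, plus strand) started 127 bp from it. Of the 642 nuclear thresholded summits, 105 (16.4%) lay in a gene of this annotation class and 18 (2.80%) in such genes on both strands, against 4.11% and 0.635% of the 14640 nuclear pooled summits. Genes of the class cover 1.09% of the nuclear genome. Of the 13 strongest nuclear peaks, the one at puf-9 was the only one with its summit in such a gene (7.69%). The 5 peaks nearest to puf-9 in rank had no such gene at their summits. For such genes on both strands the shares were 7.69% of the 13 strongest and 2.80% of all nuclear thresholded summits. The trait was thus shared with weaker thresholded summits and not with the peaks most like that of puf-9. The second strongest X peak, at rpl-11.2, had a gene of this class and a lincRNA gene within 250 bp of its summit.

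Peaks most like that of puf-9 were those nearest to it in rank over the pooled and both replicate lists, by the sum of absolute log2 rank differences. The 5 nearest had as their closest 5′ ends those of ska-3 (0.61), rps-15 (0.98), sqd-1 (1.46), rpl-12 (1.70) and iff-2 (1.75). rps-15 and rpl-12 encode ribosomal proteins, and iff-2 encodes a translation factor of the eIF5A family. Their summits lay 32 to 385 bp upstream of those 5′ ends, and the ratio of replicate 2 to replicate 1 signal was 1.08 to 1.30. All 5 are autosomal.

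On X itself, puf-9 had no near equal among the 131 thresholded peaks. The second X peak, upstream of the ribosomal protein gene rpl-11.2, had signal 1485, so puf-9 was 2.47 times as high, and the next pair had 354 and 345. In the replicate lists the rpl-11.2 peak had signals of 654 and 839, again below puf-9. The peaks of that pair lay 3356 bp and 6027 bp from their nearest 5′ ends, those of cest-16 and K02D3.1.

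None of the 7 paralogues had a thresholded summit in its region, beside 3.29% of all genes. At so low a share, none among 7 genes is no sign of a difference from other genes. In the pooled list, whose weak end is background, 3 of the paralogues had a summit. With puf-9 this made 4 of the 8 members, beside 8096 of 19973 genes (40.5%). In replicate 1 the count was 5 of 8, beside 46.3% of genes, and in replicate 2 it was 4 of 8, beside 46.4%. The members' counts in these lists were therefore near the share of all genes. In promoter windows, from 1000 bp upstream to 200 bp downstream, 1 of 8 members had a thresholded summit, beside 2.79% of genes, and 3 had a pooled one, beside 25.4%. The counts were 4 in replicate 1 (28.1% of genes) and 3 in replicate 2 (28.3%). No fold to a gene with no summit is given, because such a gene has no listed value.

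fbf-1 and fbf-2 encode a nearly identical pair of proteins that maintain germline stem cells and direct the switch from sperm to oocytes. fbf-1 (WBGene00001401, chromosome II, 6078263 to 6080843, minus strand) had no summit in the pooled or replicate 1 list and 1 in replicate 2, in a coding exon 279 bp downstream of its 5′ end, with signal 18.2 at rank 11238. fbf-2 (WBGene00001402, chromosome II, 6088863 to 6091480, minus strand) had no summit in any list. The nearest pooled summits lay 16824 bp and 6187 bp from the 5′ ends of fbf-1 and fbf-2, and in each case that summit had signal 52.8.

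puf-8 (WBGene00004244, chromosome II, 7296110 to 7298247, minus strand), which acts in germline stem cells and spermatocytes, also had no summit in any list. Its nearest summits lay 3594 bp away in the pooled list (signal 46.2), 3461 bp in replicate 1 (18.7) and 3648 bp in replicate 2 (26.0). The nearest thresholded summit was 39442 bp away. Of the 8 members, puf-8 and fbf-2 were those with nothing listed anywhere in their regions.

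puf-3 and puf-11 are another closely related pair, known for roles in oocytes and early embryos. The strongest paralogue summit in the pooled list was that of puf-3 (WBGene00004239, chromosome IV, 13510307 to 13512162, minus strand), with signal 50.6 at rank 1938 and a −log10 q of 1.18, 724 bp upstream. Replicate 1 had signal 14.6 there at rank 10659, and replicate 2 had 37.6 at rank 1266. The replicates thus differed about this site, with a replicate 2 to replicate 1 ratio of 2.57. The upper quartile was 1.61 over the nuclear pooled summits found in both replicate lists. Replicate 2 had a second summit at puf-3, in a coding exon 272 bp downstream, with signal 23.7.

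The puf-3 summit cannot be given to puf-3 alone. puf-3 lies inside afmd-2, a gene on the opposite strand, the summit lay in an afmd-2 intron, and the nearest annotated 5′ end was that of an afmd-2 transcript, 196 bp away. With each summit given to its nearest 5′ end, puf-3 had none in the pooled list.

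puf-11 (WBGene00022257, chromosome IV, 6421585 to 6423497, plus strand) had pooled summits in a coding exon 895 bp downstream, with signal 39.7 at rank 3809, and 182 bp upstream, with signal 32.2 at rank 7316. The upstream site was listed in replicate 1 with signal 12.9 at rank 14642 and in replicate 2 with 16.2 at rank 15124, in the weak part of both lists. The exon site was listed in replicate 2 with signal 32.1 and was not listed in replicate 1 within 100 bp. Its −log10 q was 0.472 in the pooled list.

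puf-5 (WBGene00004241, chromosome II, 8575541 to 8577787, plus strand), which acts in oocytes, had 1 pooled summit, in a coding exon 1262 bp downstream, with signal 27.8 at rank 11227. Replicate 1 listed it with signal 18.7 at rank 5018, and replicate 2 did not. A strong peak stood nearby but outside the region, since within 20 kb the highest pooled signal was 4206, that of the iff-2 peak.

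puf-12 (WBGene00014165, chromosome II, 10100310 to 10103061, plus strand) belongs to a more distant branch of the family. It had no summit in the pooled or replicate 2 list and 1 in replicate 1, in an intron 186 bp downstream, with signal 15.8 at rank 8600. puf-6 and puf-7, the other annotated genes with a puf symbol, had no summit in any list. How much of their sequence occurs once in the genome was not computed.

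Set beside its paralogues, puf-9 was 72.4 times as high as puf-3, 92.2 times as high as puf-11 and 132 times as high as puf-5 in the pooled list. In replicate 1 the ratios ran from 85.3 (puf-5) to 124 (puf-11), and in replicate 2 from 55.6 (puf-3) to 115 (fbf-1). The order of the paralogues differed between the replicates, with puf-5 first in replicate 1 and puf-3 first in replicate 2, though puf-3 was above puf-11 in both. The strongest paralogue, puf-3, reached 60.4% of the signal of the weakest thresholded peak. Of the 6 pooled summits in the 8 members, 3 were in both replicate lists within 100 bp (puf-9, puf-3 and the upstream site of puf-11), beside 30.4% of all nuclear pooled summits.

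**Figure D2:**
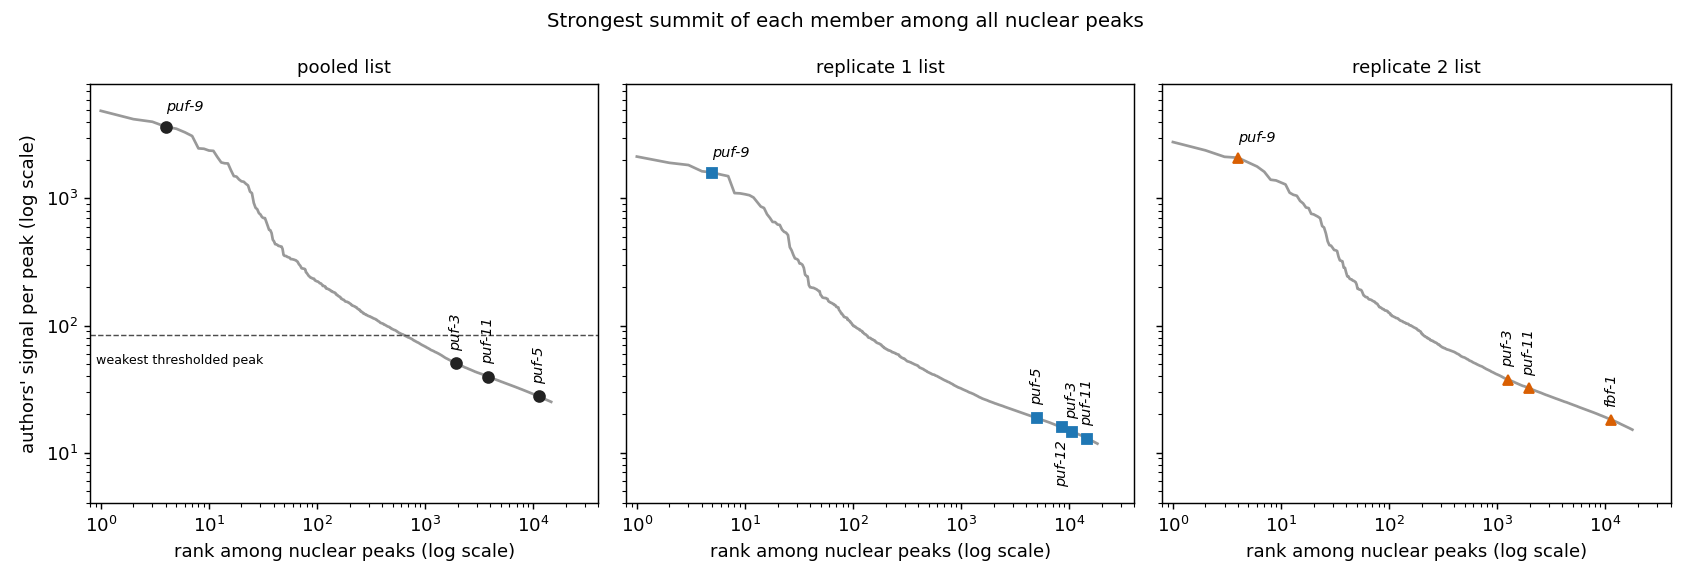
Grey lines show the authors' signal of every nuclear peak against its rank, both on log axes, in the pooled and replicate lists, with the strongest summit of each member that has one. puf-9 sits near the top of each curve, at nuclear rank 4, 5 and 4, and each listed paralogue lies beyond rank 1000, in the pooled list below the dashed line at 83.8.

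Near-identical copies can lose reads that map to more than 1 place, and how such reads were treated is not given in the sources used here. The share of 36-base words found once in the genome was 100% over the regions of puf-9, puf-8, puf-5 and puf-12, and 97.4% for both puf-3 and puf-11. It was lower at 79.9% for fbf-2 and 69.5% for fbf-1. Within the upstream kilobase it was 97.8% for fbf-2 and 62.1% for fbf-1. Of the members with no summit in any list, puf-8 was at 100% and fbf-2 at 79.9%. The part of repeated sequence in the counts was not tested.

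The coding sequences of fbf-1 and fbf-2 were 91.9% identical and those of puf-3 and puf-11 90.3%, while puf-9 shared 48.3 to 52.5% with each of the other members under the same global alignment. The upstream kilobases of both close pairs were less alike than their coding sequences, with 65.0% for puf-3 and puf-11 and 55.5% for fbf-1 and fbf-2. For puf-9 against the others upstream identity was 48.8 to 51.7%, in the range of its coding identity. Upstream identity over all pairs of members other than the close ones was 48.8 to 53.0%. Values at this level, the coding ones of puf-9 included, therefore cannot be read as a sign of likeness. The longest run shared by the upstream kilobases was 42 bp for the fbf pair and 32 bp for puf-3 and puf-11. The 150 bases upstream of the fbf genes, at chrII:6080844-6080993 and chrII:6091481-6091630 on the minus strand, show that run and the low GC content of both sites (32.0% and 28.7%). Capitals again mark the words listed above.
fbf-1 upstream: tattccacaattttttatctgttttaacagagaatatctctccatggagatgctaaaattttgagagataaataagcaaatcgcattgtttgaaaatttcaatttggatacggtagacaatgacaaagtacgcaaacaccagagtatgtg
fbf-2 upstream: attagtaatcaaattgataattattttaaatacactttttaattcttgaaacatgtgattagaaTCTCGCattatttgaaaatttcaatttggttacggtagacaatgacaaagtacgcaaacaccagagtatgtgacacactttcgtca

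**Figure D3:**
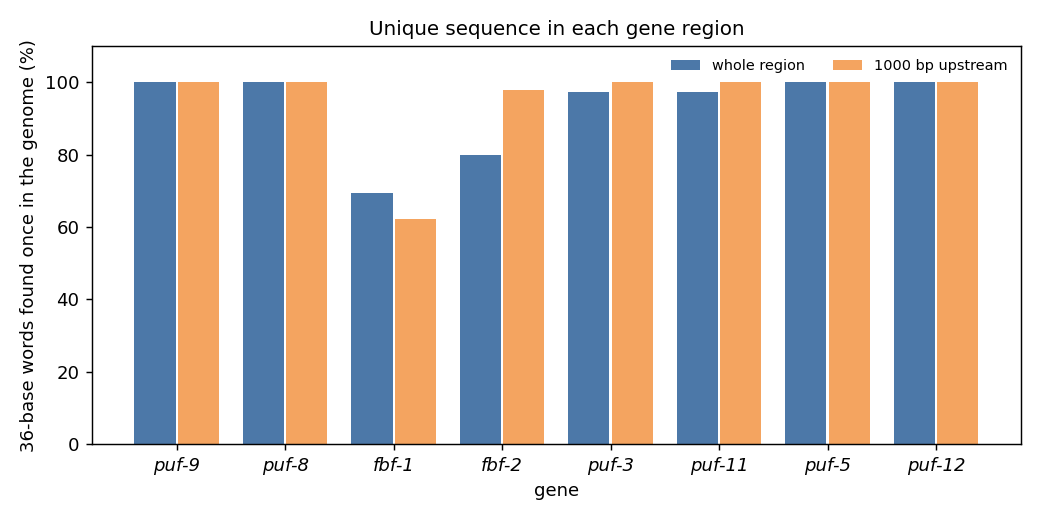
Bars give the percentage of 36-base words that occur once in the genome, over the whole region of each gene (blue) and over the 1000 bp upstream (orange). The fbf pair stands below the others, with fbf-1 at 69.5% and 62.1% and fbf-2 at 79.9% and 97.8%.

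The puf-9 summit was ordinary in GC content among thresholded summits and held more of the words than most. Within 100 bp of the summit its GC content was 47.8%, against 46.0% ± 7.10 (SD over 642 nuclear summits), and 5 of the 8 words were present. At least 5 words were present at 49 of the 642 summits (7.63%). ACGCGC began 10 bp and the reverse complement of GAGCGC 8 bp upstream of the summit. ACGCGC was at 18.7% of summits and in 2.45% of windows of the same length along the genome, and GAGCGC at 19.2% and in 2.62%. ACGCAG, at 26.0% of summits and in 3.81% of windows, was not found within 1000 bp upstream of any member. These words were chosen on the same summits, puf-9 included, so their presence there is a description.

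The strongest pooled summits of puf-3, puf-11 and puf-5 held none of the 8 words within 100 bp. Searching the 1000 bp upstream of each gene, a choice made after seeing the data because 4 members have no pooled summit, gave 7 words for puf-9, 4 for puf-11, 3 for fbf-1 and puf-12, 2 for puf-3, 1 for puf-8 and fbf-2, and 0 for puf-5. At least 7 words were found upstream of 89 of 19972 genes (0.446%), and at least 4 upstream of 11.6%. The puf-9 kilobase holds one of the summits on which the words were chosen. Its count is therefore a description, and these shares do not measure how unusual it is. GC content over the same kilobase was 41.5% at puf-9 and 33.9 to 37.5% at the others, with a median of 34.3% over all genes.

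**Figure D4:**
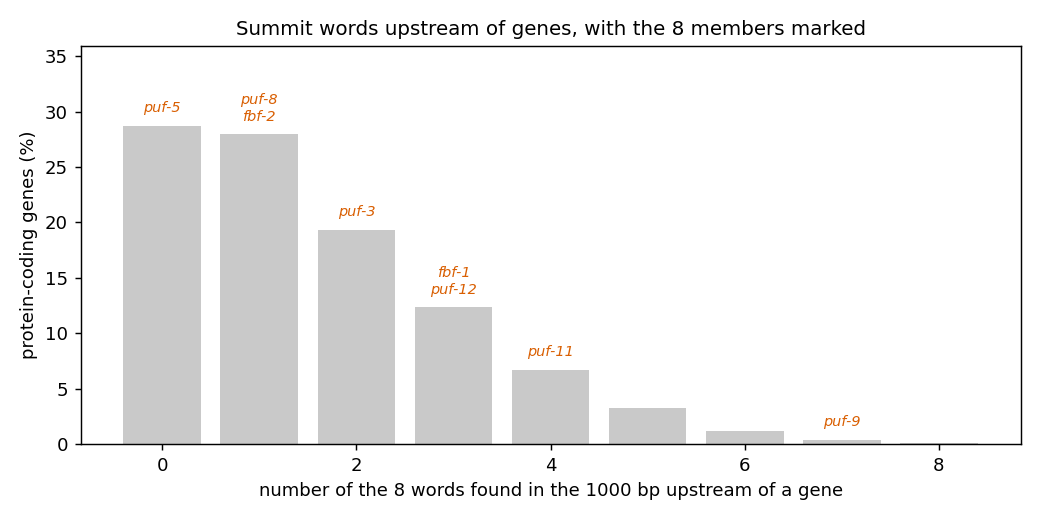
Grey bars give the percentage of protein-coding genes whose 1000 bp upstream holds each number of the 8 words, and the names above the bars mark the members. puf-9 stands at 7 words and the other members at 0 to 4. The words were chosen on summits that include that of puf-9.

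Genes that work with PUF proteins were read from 3 lists, whose regions are longer than the 3027 bp median of all genes. Of 29 partners and targets of the germline PUF proteins (median region 3604 bp), 2 had a thresholded summit (6.90%, beside 3.29% of all genes) and 19 a pooled one (65.5%, beside 40.5%). The thresholded count was 1 with a reach of 500 bp, by nearest 5′ end and without either replicate. The share of all genes in these settings is not given, and 3.29% does not apply to them. In promoter windows, 1 of the 29 genes had a thresholded summit, beside 2.79% of all genes, and 10 a pooled one, beside 25.4%. The thresholded genes were larp-1, an RNA-binding protein gene, with signal 243 in the pooled list and 104 and 135 in replicates 1 and 2, and mpk-1, the ERK kinase gene, with 84.0, 33.0 and 49.5. The larp-1 summit lay nearer to the 5′ end of wip-1. The mpk-1 summit lay in an intron, 4170 bp from the nearest annotated 5′ end, at rank 656 of the 660 thresholded peaks. The third in the pooled list was nos-3, a Nanos-type partner of FBF proteins, with signal 67.0, and the FBF targets gld-1 and fog-1 had 33.5 and 36.1, in the range of the PUF paralogues.

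Of 13 matched heterochronic and microRNA-pathway genes around puf-9 (median region 7674 bp), 4 had a thresholded summit (30.8%, beside 3.29% of all genes) and 11 a pooled one (84.6%, beside 40.5%). The thresholded count was 1 with a reach of 500 bp upstream and 2 with each summit given to its nearest 5′ end. For these rules, too, the share of all genes is not given. In promoter windows, 4 of the 13 genes had a thresholded summit, beside 2.79% of all genes, and 8 a pooled one, beside 25.4%. A gene with several annotated 5′ ends has more than 1 such window. nhl-2, which encodes a cofactor of the microRNA machinery, had signal 1353 (624 and 732 in the replicates), with its summit nearer to the 5′ end of tag-340. lin-46 had 164, with its summit nearer to the 5′ end of R186.8, ain-1, a gene for a GW182-type microRNA effector, had 126, and lin-66 had 91.8. hbl-1, the mRNA that puf-9 is known to repress, and lin-41, another let-7 target, had no summit in the pooled, thresholded or replicate 2 lists. In replicate 1 hbl-1 had 1 in a coding exon, with signal 26.5 at rank 1620, and lin-41 had its strongest in a coding exon, with signal 21.5 at rank 3185. That hbl-1 summit lay within 20 kb of the puf-9 summit on X and was the strongest there in replicate 1 apart from the puf-9 peak.

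Among 25 genes of deadenylation, decapping and cap binding (median region 4480 bp), machinery that PUF proteins recruit, 4 had a thresholded summit (16.0%, beside 3.29% of all genes) and 20 a pooled one (80.0%, beside 40.5%). The thresholded count was 2 with a reach of 500 bp or by nearest 5′ end, and 7 without replicate 1, in the 660 strongest peaks of replicate 2. Again no share of all genes is given for these settings. In promoter windows, 4 of the 25 genes had a thresholded summit, beside 2.79% of all genes, and 13 a pooled one, beside 25.4%. The thresholded genes were ifet-1, an eIF4E-binding protein gene (signal 327, and 162 and 161 in the replicates), ntl-2 (185) and ntl-11 (154), of the CCR4-NOT deadenylase, and car-1 (169), a component of germline RNA granules. The summits of ifet-1 and car-1 lay nearer to the 5′ ends of rps-1 and coa-5. None of these genes came near the puf-9 signal of 3662, the highest being nhl-2 at 1353.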

How the data were processed

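ZFP-2 ChIP-seq peak lists of 2 biological replicates were used as deposited, without a header. Per the labels' description files, the authors derived the replicate and pooled lists from alignments and a control, and a thresholded list by IDR. Which aligner, caller and IDR cutoff were used is not given in the sources used here. The signal per peak and its −log10 q (by the format's convention) are deposited values. The deposited −log10 q was 1.96 for all thresholded peaks and was not used for ranking.

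Summits were read from the deposited offset and set against Ensembl release 115 on WBcel235, the sequence of ce11. Peak lists on ce10 served for signal at equal rank only. Sequence and unique words came from the RefSeq genome of the same assembly. Identity was computed by global alignment. The assignment of summits and the count of unique words were tested on simulated data.

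The members, lists and words were chosen with earlier results of these data known. Genes named are the members, other puf genes, genes at their summits, up to 5 thresholded and 3 pooled genes of each list by signal, the 5 peaks nearest to puf-9 in rank and the 3 next X peaks. gld-1, fog-1, hbl-1, lin-41, hsr-9 and genes with the nearest 5′ end to a list gene's summit were named outside this rule, after their values were seen. let-7 was not matched by symbol. Read depth is unknown, so no interval is given. Computation was in Python 3.11.15 with Biopython 1.88, pandas 2.3.3 and numpy 2.4.6, and plots were drawn with matplotlib 3.10.9.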

Additional observations from a re-analysis of the deposited data

How the results depend on the processing

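With 1 group and 2 replicates there is no test, and the limit is the unknown read depth and signal scale. No paired analysis was possible because the design has a single group. Of 114 alternative values over 26 results, 91 stayed within the tolerance, which was 1.5 times for counts and shares and, for ranks of genes found in both replicate lists, 1 SD of those ranks. For puf-5, found in 1 of them, it was 1.5 times. The replicate ranks behind this SD are also the alternatives without either replicate, so the 91 is not a measure of robustness. That SD is wide for the paralogues, and the rank of puf-11 was 7316 within the promoter window, against 3809. The puf-9 rank was 6 to 9 without either replicate, 4 among nuclear peaks, and 6 under the other alternatives. A rule for assigning summits cannot change the list rank of that peak. Paralogues left without a pooled summit under a rule gave no value and are not among the 114. These were puf-3 with a reach of 500 bp, puf-3 and puf-5 by nearest 5′ end, and puf-5 in promoter windows. Without either replicate the rank of puf-3 ran from 1266 to 10659 and that of puf-11 from 1994 to 14642. That of puf-5 was 5018 in replicate 1, with no value in replicate 2. With each summit given to its nearest 5′ end, 2 members had a pooled summit. In promoter windows (1000 bp upstream to 200 bp downstream) the members held 3 pooled summits. The germline partner and decay lists had 10 of 29 and 13 of 25 genes with a pooled summit there, beside 25.4% of all genes. Counts of genes with a thresholded summit in the germline partner, heterochronic and decay lists were 1, 1 and 2 with a reach of 500 bp and 1, 2 and 2 by nearest 5′ end. The germline partner count was also 1 in promoter windows, among the 330 strongest peaks and in the 660 strongest of either replicate, where the decay count ran from 5 to 7. In promoter windows the heterochronic and decay counts were both 4. There 2.79% of all genes had a thresholded summit, and the share under the other rules is not given. puf-9 held 3 words within 50 bp of its summit and puf-11 held 2 within 150 bp of its strongest summit, the one in a coding exon. In the 1000 bp upstream, chosen after seeing the data, puf-3 held 2 and puf-11 held 4. The cause was not tested for any of these.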
